A study of Arabidopsis thaliana with 12 samples.

Results

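The response of an Arabidopsis line labelled for SnRK1 knockdown was set against that of a line labelled for S1 bZIP knockdown, gene by gene. Counts of the targeted genes, given with the results, bear out these labels only in part. All 18388 genes with enough counts to be tested, of the 28775 listed, were members, with no selection on a result. For each gene the log2 change of the SnRK1 line against its own wild type was taken, the log2 change of the S1 line against its own wild type was subtracted, and the remainder (called the difference) was tested. A positive difference means that the change in the SnRK1 line lay above that in the S1 line.

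The 12 RNA sequencing libraries came from whole Col-0 seedlings, 3 weeks old, in 4 groups of 3. One line carried snrk1-alpha-1 as a knockout (ko) together with an inducible knockdown of snrk1-alpha-2, and is called the SnRK1-labelled line. The other carried bZIP1 and bZIP53 as ko and, under inducible knockdown, bZIP2, bZIP11 and bZIP44, and is called the S1-labelled line. Each line had its own wild type. From an age of 14 d, the SnRK1-labelled line and its wild type spent 6 d on Est, the additive named in the labels, and the S1-labelled line and its wild type spent 5 d on MS medium and then 1 d on Est. All plants grew in 12 h light and 12 h dark and were collected at the same time, after a night prolonged by 6 h. The days on Est thus differ with the line, so line and duration cannot be told apart in the difference. The labels do not say which promoter drives the knockdowns, how many independent lines were used, or whether the replicates were grown as separate cultures. The p-values therefore describe only the spread between these libraries, which may be technical. In whole seedlings, fewer cells of a type and less RNA per cell cannot be told apart.

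SnRK1 is a plant protein kinase complex that is active when sugar and energy run low. It is known to switch on the breakdown of amino acids, lipids and storage carbon and to hold back growth. The S1 group bZIPs are small transcription factors that pair with C group bZIPs, and they are known to bind promoter elements with an ACGT core and the proline-response element ACTCAT. They are regarded as one of the routes by which low energy signals reach genes of amino acid metabolism, with proline dehydrogenase and asparagine synthetase among the best known targets.

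Promoter stretches of 3 genes that carry the main patterns are given here, each the 250 bases before the annotated start, from RefSeq TAIR10.1, written 5′ to 3′ on the strand of the gene. Capitals mark ACTCAT and ACGT, searched on both strands, so that ATGAGT is ACTCAT read on the other strand. The proline dehydrogenase gene PRODH1 fell in both lines (chr3:12451557-12451806, minus strand), the inositol synthesis gene MIPS1 moved in opposite directions (chr4:18472049-18472298, minus strand), and the inositol oxidation gene MIOX4 fell in the S1-labelled line only by the calls (chr4:13297445-13297694, plus strand).
PRODH1: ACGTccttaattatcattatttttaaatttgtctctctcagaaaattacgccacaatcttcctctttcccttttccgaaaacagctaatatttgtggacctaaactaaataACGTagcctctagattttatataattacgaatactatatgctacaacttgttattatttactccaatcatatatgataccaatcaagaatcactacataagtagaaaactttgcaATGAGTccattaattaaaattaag
MIPS1: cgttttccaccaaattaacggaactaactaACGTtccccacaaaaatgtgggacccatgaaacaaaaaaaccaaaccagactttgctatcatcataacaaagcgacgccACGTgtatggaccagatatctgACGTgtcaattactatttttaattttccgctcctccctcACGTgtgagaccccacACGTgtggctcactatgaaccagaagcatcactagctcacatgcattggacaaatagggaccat
MIOX4: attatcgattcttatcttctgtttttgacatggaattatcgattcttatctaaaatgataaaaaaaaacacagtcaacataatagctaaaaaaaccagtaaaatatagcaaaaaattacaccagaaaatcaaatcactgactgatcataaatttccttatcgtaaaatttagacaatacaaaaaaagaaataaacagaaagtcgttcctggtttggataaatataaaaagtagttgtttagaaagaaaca
The PRODH1 stretch holds ACTCAT 1 time and ACGT 2 times. The MIPS1 stretch holds ACGT 5 times, 3 of them inside CACGTG, and the MIOX4 stretch holds neither set of letters in this window. Over the 33047 windows of nuclear genes, ACTCAT occurred in 12.7%, ACGT in 42.8% and CACGTG, which contains ACGT, in 5.86%. These matches describe letters and do not show binding.

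Library totals ranged from 3760168 to 9403687 counts. The SnRK1-labelled libraries stood apart from the other 9 on the first principal component, which held 78.95% of the variance. Their summed level of 39 light harvesting and photosystem genes, markers of green tissue, was 23462 to 47298 CPM (counts relative to the library size after TMM scaling), against 160957 to 201841 in their wild type. The sum was 122394 to 145942 CPM in the S1-labelled line and 157928 to 196575 CPM in its wild type. Of 5 root markers, NRT2.1 was at 0 in the SnRK1 wild type and all others had counts in every group. Their sums were 25.4 to 30.9, 31 to 46, 23.1 to 28 and 20.7 to 23.3 CPM in the order wild type, SnRK1-labelled line, wild type, S1-labelled line. The sums hide moves both ways, and NRT2.1 had 395 counts in the SnRK1-labelled line. Of the 4 root markers tested, 2 rose and 2 fell in that line, beside 35.4% and 33.0% of all genes. Their median change there was −1.28. CASP2 and CASP1 had differences below 0 in every fit that left out a library (−5.87 to −3.27 and −3.00 to −1.79). Flower markers summed to at most 8.08 CPM and seed storage markers to at most 0.289 CPM in any library. The part of tissue make-up in the differences was not tested.

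The targeted genes were read first. KIN10, the catalytic subunit SnRK1 alpha 1, had 86.2, 99.6 and 78.5 CPM in the wild type and 61.6, 65.6 and 60.2 CPM in the SnRK1-labelled line. KIN11, the subunit alpha 2, had 98.4, 114 and 85.4 CPM in the wild type and 28.3, 29 and 43.4 CPM in that line. Both fell in the SnRK1-labelled line without overlap between groups. The sources used here do not say where on a transcript the insertion or knockdown acts, so gene counts check the ko only in part.

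KIN11 also fell in the S1-labelled line, from 76.8, 84.2 and 65.4 CPM to 40.3, 44 and 46.1 CPM, again without overlap. Its changes were −1.58 and −0.80, and the difference of −0.78 ± 0.22 (SE) was called (adjusted p = 0.00733, edgeR quasi-likelihood test, Benjamini-Hochberg). KIN10 changed by −0.50 and −0.26, where the second was not called, and its difference of −0.23 had a 95% interval of −0.58 to 0.11. With library totals as the only scaling the KIN11 difference was −0.30 (adjusted p = 0.264), and with scaling by the most expressed genes −0.44 (adjusted p = 0.0947). Its call in the S1-labelled line was lost without wild type replicate 2 or without S1-labelled replicate 1 or 2, where the adjusted p reached 0.0755. KIN10 shares exon sequence with a neighbouring gene, and strand is not stated.

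bZIP1 fell in both lines and further in the S1-labelled line. It had 114, 133 and 123 CPM in the wild type and 44.8, 31.1 and 51.2 CPM in the SnRK1-labelled line, and 135, 143 and 119 CPM against 17.9, 20.4 and 26.6 CPM in the S1 pair. The changes were −1.55 and −2.62, a difference of 1.07 ± 0.24 (adjusted p = 0.00136). bZIP53 rose by 0.56 in the SnRK1-labelled line and fell by 2.26 in the S1-labelled line, from 71.9, 75.4 and 89.5 CPM to 15.1, 17.8 and 16.7 CPM.

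The 3 genes of the S1 knockdown construct had no called fall in the line labelled for it. Their counts thus do not bear out that part of the label, although gene counts check a knockdown only in part. bZIP2 had 62.5, 74.4 and 61.4 CPM in the wild type and 58.8, 72.2 and 68.9 CPM in the S1-labelled line, a change of 0.01 that was not called. bZIP11 was at 1.27, 1.19 and 1.8 against 1.69, 1.08 and 0.766 CPM, and bZIP44 at 1.13, 0.476 and 1.4 against 1.57, 2.7 and 1.53 CPM, and neither change was called. In the SnRK1-labelled line bZIP11 rose from 1.42, 1.32 and 1.15 CPM to 72.3, 69.8 and 61.9 CPM, so that its difference was 5.87 ± 0.46 (adjusted p = 8.35e-08). bZIP44 rose there by 2.45, with a difference of 1.60 ± 0.55 (adjusted p = 0.0204) that was lost without wild type replicate 1 of either experiment or replicate 3 of the S1 wild type, where the largest adjusted p was 0.0857. Each of these 5 bZIP genes overlaps another listed gene with identical counts throughout, and the pair is 1 measurement.

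The difference was called for 10015 genes, 54.5% of those tested. Of these, 5002 were higher (27.2%) and 5013 lower (27.3%), at a Benjamini-Hochberg adjusted p under 0.05. The split depended on scaling, since library totals alone gave 7678 higher and 2601 lower, and scaling on the most expressed genes gave 6945 and 3207. Those scalings moved the median difference over all genes from 0.03 to 0.51 and 0.38, and the values given are relative to a median near 0. The SnRK1-labelled line had 12582 calls of its own (68.4%) and the S1-labelled line 474 (2.58%), so 9970 of the called differences had the sign of the change in the SnRK1-labelled line.

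Of the 474 genes called in the S1-labelled line, 360 were also called in the SnRK1-labelled line, which is 75.9% of the former, beside the 68.4% of all genes called there, and 2.86% of the latter. The 2 responses share no control library. Of the 299 genes that rose in the S1-labelled line (1.63% of those tested), 56.2% rose and 17.7% fell in the SnRK1-labelled line, beside 35.4% and 33.0% of all genes. Of the 175 that fell (0.952%), 53.1% fell and 26.3% rose. Across the 18388 genes, which are not independent replicates, the Pearson correlation of the 2 responses was 0.22, and it was 0.49 over the 474. The 360 genes divide into 118 shared (same direction, difference not called), 143 unequal (same direction, difference called) and 99 opposite. These counts depend on single libraries. Leaving out each library in turn gave 39 to 176 shared, 45 to 350 unequal and 25 to 156 opposite genes, and 140 to 866 calls in the S1-labelled line. The highest counts came without SnRK1-labelled replicate 3 and the lowest without S1 wild type replicate 2 or S1-labelled replicate 2.

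**Figure D1:**
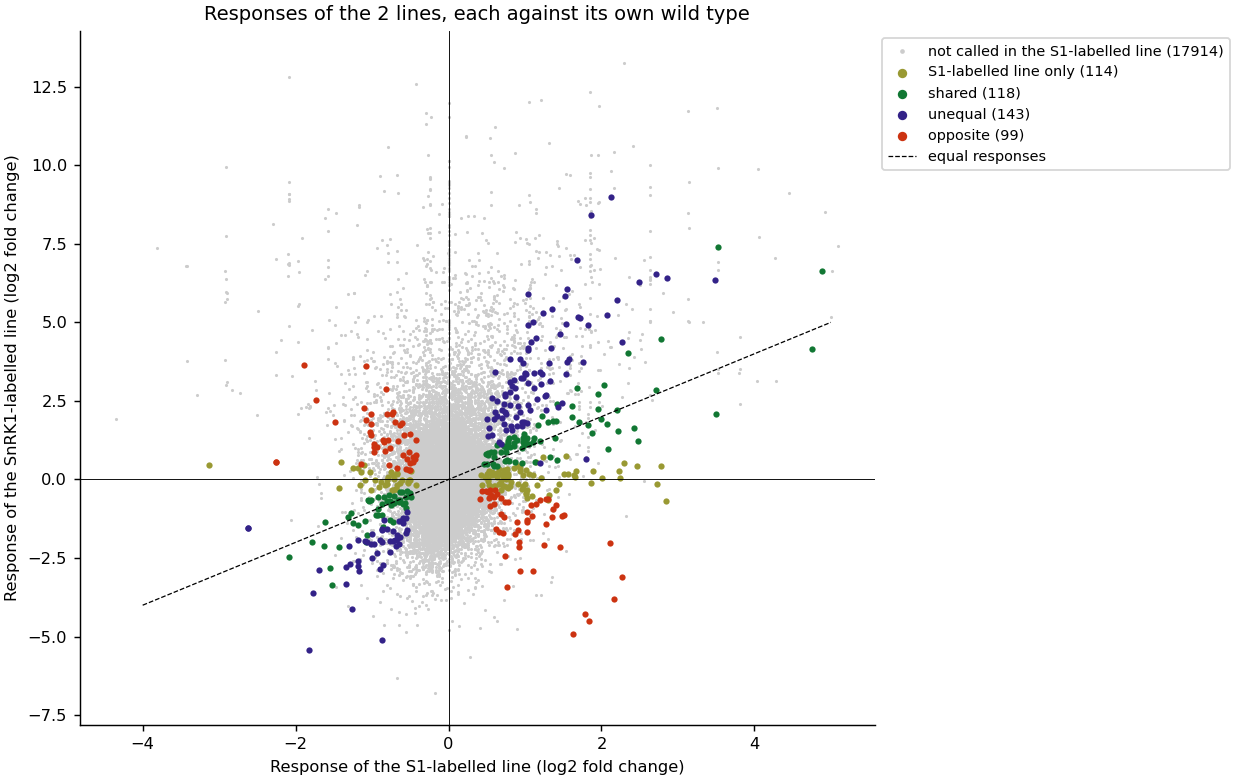
Log2 change of each of 18388 genes in the S1-labelled line (x axis) and in the SnRK1-labelled line (y axis), each against its own wild type, with classes coloured and a dashed line where both are equal. The 143 unequal genes lie mostly on the steep side of the line and the 99 opposite genes fill the other 2 quadrants.

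Shared responses included lower PRODH1 and PIN7 and higher SHM7. Of the 118 shared genes, 45 fell and 73 rose in both lines. The median changes were −0.80 and −0.87 among the genes that fell, and 1.23 and 1.05 among those that rose. A difference that was not called does not show equal responses. In 71 of the 118 (60.2%) its 95% interval lay within 1 log2 unit of 0, a 2-fold bound. Among other genes without a called difference, this share was 58.5% for those called in neither line. It was 64.5% for those called in the S1-labelled line only and 43.8% for those called in the SnRK1-labelled line only. The bound is about as wide as the median changes, so the share does not set equal responses apart.

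PRODH1, which encodes proline dehydrogenase, the first enzyme of proline breakdown, had 6077, 6451 and 4816 CPM in the wild type and 1225, 1084 and 1709 CPM in the SnRK1-labelled line. In the other pair it had 4082, 4154 and 3384 CPM in the wild type and 1186, 1197 and 1365 CPM in the S1-labelled line. Both lines lay far below their wild types and reached like levels. The log2 changes were −2.11 and −1.63, and the difference of −0.48 had a 95% interval of −1.11 to 0.15. Without SnRK1-labelled replicate 3, the library with the highest PRODH1 level of its line, the difference was called.

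MAMI, a membrane protein gene, fell from 89.6, 104 and 93.5 CPM to 35.2, 39 and 41.3 CPM in the SnRK1-labelled line and from 90.5, 116 and 108 CPM to 46.5, 45.8 and 54.5 CPM in the S1-labelled line. PIN7, an auxin efflux carrier, fell from 91.5, 96 and 96.4 CPM to 41.9, 49.4 and 56.6 CPM, and from 84.8, 85.4 and 74.4 CPM to 44.2, 41.4 and 43.5 CPM. No library of either line overlapped its wild type in these genes. The PIN7 changes of −0.94 and −0.92 left a difference of −0.02 (95% interval −0.37 to 0.33), although library totals alone gave 0.46 (adjusted p = 0.0444). DIN9, a dark-induced mannose-6-phosphate isomerase, fell by 0.64 and 1.01, with an interval of the difference of −0.14 to 0.87.

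SHM7, a serine hydroxymethyltransferase, rose from 16.9, 15.6 and 14.4 CPM to 43.5, 38.7 and 36.7 CPM in the SnRK1-labelled line and from 15.6, 16.2 and 14.6 CPM to 30.4, 36.2 and 34.3 CPM in the S1-labelled line. The wild types were at one level and neither line overlapped them. The difference was 0.21 (95% interval −0.16 to 0.58). CYP71B19, a cytochrome P450, rose by 1.09 and 0.99 (interval −0.31 to 0.51), and the transcription factor gene Rap2.6L by 1.93 and 1.99 (interval −0.92 to 0.80). OPR1, an oxophytodienoate reductase, rose by 1.85 and 1.36 from wild types that themselves differed by −1.19 (adjusted p = 0.00201), and it shares exon sequence with OPR2.

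Unequal responses were nearly all larger in the SnRK1-labelled line. Of the 143 genes, 46 fell further and 93 rose further there, leaving 4 in which the S1-labelled line changed more. These 4 were bZIP1 with its overlapping partner AT5G49448, the NAC domain gene NAC047 and the RNA-binding protein gene AT3G23900. Median changes were −1.98 against −0.87 among the 46 and 3.10 against 1.04 among the 93.

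Among unequal genes that fell, HGO, homogentisate dioxygenase of tyrosine breakdown, fell from 1928, 1807 and 1575 CPM to 192, 128 and 210 CPM in the SnRK1-labelled line, and from 883, 891 and 738 CPM to 316, 305 and 368 CPM in the S1-labelled line. The groups did not overlap in either pair. The changes of −3.33 and −1.34 gave a difference of −1.98 ± 0.26 (adjusted p = 1.16e-05). HGO shares exon sequence with AT5G54090, which moved alike (−2.90 and −1.17), and without strand their reads cannot be told apart. BCE2, part of the enzyme complex that oxidises branched-chain keto acids, fell by 2.76 and 1.18. ALDH6B2, methylmalonate semialdehyde dehydrogenase of valine breakdown, fell by 1.99 and 0.87. BCE2 and ALDH6B2 were chosen after their values were seen.

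OCT2, an organic cation and carnitine transporter, fell from 46.7, 51 and 62.6 CPM to 8.28, 5.51 and 8.56 CPM in the SnRK1-labelled line, and from 39.8, 34.7 and 30.4 CPM to 16.8, 17.1 and 23.1 CPM in the S1-labelled line. Each line lay below its wild type, and the difference was −1.97 ± 0.25 (adjusted p = 9.43e-06). The aquaporins PIP1B (−2.32 and −0.77) and PIP2B (−1.65 and −0.73) and the beta-amylase family gene BAM9 (−2.33 and −0.93), chosen after their values were seen, belonged to the same group.

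Among unequal genes that rose, AT2G04050, a MATE efflux carrier, rose from 0.772, 0.658 and 0.866 CPM to 378, 442 and 346 CPM in the SnRK1-labelled line, and from 2.25, 3.33 and 1.2 CPM to 11.1, 8.83 and 8.88 CPM in the S1-labelled line. All libraries of both lines lay above their wild types, with changes of 8.98 and 2.12 and a difference of 6.86 ± 0.46 (adjusted p = 1.61e-08). ABCB4, an auxin transporter, rose from 20.2, 19.8 and 22.5 CPM to 691, 732 and 573 CPM, and from 18.9, 12.1 and 17.4 CPM to 38, 36.7 and 30.9 CPM. The NAC transcription factor gene ATAF2 rose by 3.72 and 0.97, the mitochondrial alternative oxidase gene AOX1A by 3.83 and 0.81, and CYP81D8 by 5.90 and 1.04. ABCB4 and ATAF2 share exon sequence with a neighbour.

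Of the 15 named unequal genes, 6 kept this class in each of the 12 fits that leave out a library, while 14 kept a called difference in all 12. For 7 of the other 9, namely KIN11, THI2.2, OCT2, AT5G52190, CYP81D8, UGT73B2 and AOX1A, the class was lost in the fits where the change in the S1-labelled line was no longer called. The adjusted p of CYP81D8 in that line reached 0.0976 and that of AOX1A 0.0944. NAC047 lost it without wild type replicate 1 or 2 or SnRK1-labelled replicate 2 or 3, and AT3G23900 without SnRK1 wild type replicate 1.

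Opposite responses were found for 99 genes. In 53 the level fell in the SnRK1-labelled line and rose in the S1-labelled line (medians −1.16 and 0.92). In 46 it rose and fell (medians 1.19 and −0.79). Membership depended on scaling. Of the 99 genes, 50 kept the class with library totals alone and 69 with scaling on the most expressed genes. The wild types themselves were called different for 53 of the 99 (53.5%), beside 12.1% of all genes, 28.8% of shared and 25.9% of unequal genes. Among the 53 genes lower in the SnRK1-labelled line, its wild type was higher than the other in 26 and lower in 1, and among the 46 it was lower in 25 and higher in 1, beside 6.17% higher and 5.94% lower over all genes. The comparison of wild types uses the same wild type libraries as the responses, so these counts are not independent of them. A comparison against all 6 wild type libraries together was added after the data were seen. In it, 21 of the 53 and 14 of the 46 still had every library of one line below and of the other above. Over all 18388 genes this held for 282 (1.53%). The 99 genes were chosen by opposite calls in the same libraries, so a higher share among them follows largely from that choice. Against their own wild types, 51 of the 53 and 46 of the 46 lay apart in opposite directions, beside 6.82% of all genes. The counts against all 6 libraries therefore describe the 99 genes and test nothing.

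PAP85, a cupin family gene of seed storage type, was lowest in one line and highest in the other. It had 12.9, 14.3 and 20.5 CPM in the wild type and 0.627, 0.542 and 0.901 CPM in the SnRK1-labelled line. It had 17.4, 13.3 and 17.2 CPM in the other wild type and 42.8, 53.1 and 77.5 CPM in the S1-labelled line. The wild types were at like levels, and the lines lay on either side of all 6. The changes were −4.50 and 1.84, the difference −6.33 ± 0.41 (adjusted p = 1.11e-08), and the class held in all 12 fits that leave out a library.

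PMT6, a sugar alcohol transporter family member, fell from 110, 98.1 and 121 CPM to 52.4, 33.9 and 43.9 CPM in the SnRK1-labelled line and rose from 87.8, 78 and 90.7 CPM to 201, 169 and 150 CPM in the S1-labelled line. AT4G19420, a pectin acetylesterase, fell by 1.75 and rose by 0.87, from wild types of 104, 115 and 137 CPM and of 102, 110 and 103 CPM. Both lines lay outside all wild type libraries in these genes, on opposite sides. GASA1, a gibberellin-regulated peptide gene, fell by 4.92 and rose by 1.63, but its wild types differed by 1.88 (adjusted p = 0.000925), at 586, 636 and 1058 CPM against 270, 166 and 180 CPM. In the S1-labelled line GASA1 was at 701, 588 and 626 CPM, within the range of the other wild type.

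VDAC3, a mitochondrial porin, showed the reverse order. It rose from 50.3, 52 and 42.4 CPM to 173, 179 and 161 CPM in the SnRK1-labelled line and fell from 52.3, 54.7 and 64.6 CPM to 36.7, 35.1 and 33.7 CPM in the S1-labelled line. Both lines lay outside all 6 wild type libraries, and the difference was 2.52 ± 0.17 (adjusted p = 1.38e-08). CRT1a, a calreticulin of the endoplasmic reticulum, rose by 2.08 and fell by 0.80, with wild types of 89.7, 82 and 59.4 CPM and of 79.3, 70.1 and 81.4 CPM. Its call in the S1-labelled line was lost without S1 wild type replicate 3 or S1-labelled replicate 2 (adjusted p up to 0.0712).

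MIPS1, an inositol phosphate synthase whose promoter is given above, rose from 64.8, 56 and 44.4 CPM to 178, 207 and 171 CPM in the SnRK1-labelled line. In the S1-labelled line it fell from 133, 128 and 128 CPM to 92.8, 75.5 and 80.4 CPM. The fallen level lay above the wild type of the other pair, since the wild types differed by −1.22 (adjusted p = 9.13e-05). The difference was 2.38 ± 0.19 (adjusted p = 1.14e-07), and the opposite class was lost in 4 of the 12 fits that leave out a library. FAD3, a fatty acid desaturase, likewise rose by 2.29 and fell by 1.11 from wild types that differed by −1.39.

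**Figure D2:**
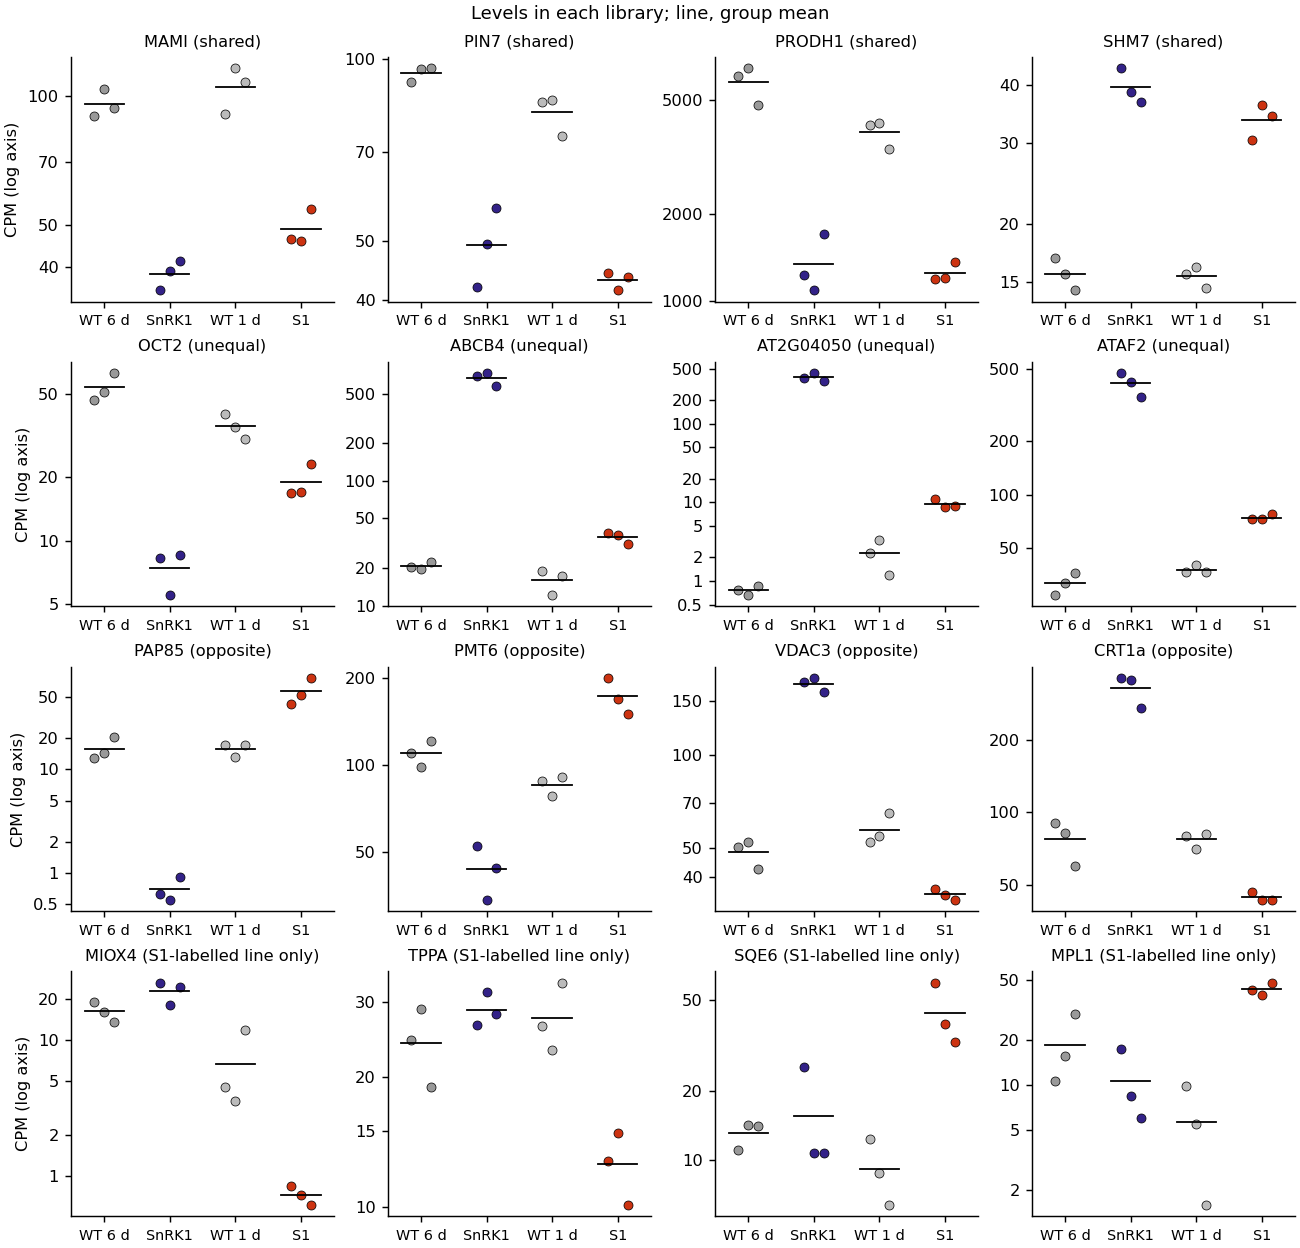
CPM (log axis) of 16 genes in every library, with 4 shared, 4 unequal, 4 opposite and 4 called in the S1-labelled line alone. Points are the 3 libraries of a group and the line is their mean. In PAP85 and VDAC3 the 2 lines lie on opposite sides of all wild type libraries, and in PRODH1 both lie below.

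Of 14 alpha-expansin genes 2 were in the opposite class, beside 0.538% of all genes tested. That family was gathered after its values were seen, so its count tests nothing. Of 19 cytosolic ribosomal protein genes none was in the opposite class, which is near the share over all genes. The genes named next were chosen after their values were seen. The expansin genes EXPA14 (3.65 and −1.89) and EXPA4 (1.78 and −1.02), whose products loosen cell walls, and the auxin-induced gene IAA19 (3.62 and −1.08) rose in the SnRK1-labelled line and fell in the S1-labelled line. The ribosomal protein gene RPL24A (1.44 and −0.51), which is not on that list, and the scaffold gene RACK1C_AT (2.08 and −0.74) did likewise. XTH24, a xyloglucan endotransglucosylase, moved the other way (−2.91 and 1.11), and so did the root sulfate transporter gene SULTR1;2 (−0.94 and 1.36).

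A response called in the S1-labelled line alone, with the difference also called, was found for 83 genes, of which 27 fell and 56 rose. MIOX4, inositol oxygenase, had 4.5, 3.57 and 11.8 CPM in the wild type and 0.845, 0.721 and 0.613 CPM in the S1-labelled line. It had 18.9, 16.1 and 13.6 CPM in the other wild type and 26.3, 17.9 and 24.3 CPM in the SnRK1-labelled line. Only the S1 pair was separate, and the difference was 3.59 ± 0.55 (adjusted p = 4.77e-05). The wild types differed by 1.33 (adjusted p = 0.00926), and without S1 wild type replicate 3, the highest of its group, the SnRK1-labelled line was called too.

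TPPA, a trehalose phosphate phosphatase, fell from 26.3, 23.1 and 33.2 CPM to 12.8, 14.8 and 10.1 CPM in the S1-labelled line, while its change of 0.24 in the SnRK1-labelled line was not called. SQE6, a squalene epoxidase, rose from 12.4, 8.8 and 6.4 CPM to 59.7, 39.5 and 32.9 CPM, and MPL1, a lipase gene induced by aphids, from 9.85, 5.47 and 1.6 CPM to 42.6, 39.5 and 47.8 CPM. Both lay above their wild type in the S1-labelled line and overlapped it in the SnRK1-labelled line. The differences were 1.37 ± 0.24 for TPPA, −1.96 ± 0.46 for SQE6 and −3.55 ± 0.60 for MPL1 (adjusted p = 0.000168, 0.0017 and 0.000106).

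Most called differences, 9359 genes, had a call in the SnRK1-labelled line and none in the S1-labelled line. A response not called in the S1-labelled line is not shown to be absent, since the median SE of a response was 0.19, and 2992 genes there had an unadjusted p under 0.05. The highest differences were genes at or near 0 counts outside the SnRK1-labelled line. TPPD, a trehalose phosphate phosphatase, had 0 counts in the wild type and 130, 162 and 109 CPM in the SnRK1-labelled line, at least 799-fold higher when the wild type group is set to 3 counts in all, and was at most 0.141 CPM in every library of the S1 pair. PNP-A, a natriuretic peptide gene, rose at least 693-fold, the ankyrin repeat gene AT4G03450 at least 356-fold, PUB54, a U-box ubiquitin ligase gene, at least 335-fold and the beta-amylase gene BAM5 at least 111-fold. TAT3, a tyrosine aminotransferase gene, had at most 0.6 CPM in the other 9 libraries and 525, 273 and 226 CPM in the SnRK1-labelled line, and BIP3, a chaperone of the endoplasmic reticulum, had at most 0.515 CPM there and 387, 385 and 362 CPM. The S1 pair held 1 to 2 counts in all for TPPD, PUB54, BAM5 and AT2G15780. The differences of TPPD and PUB54 were lost without S1 wild type replicate 1, and those of BAM5 and AT2G15780 without replicate 3, where the adjusted p was 1. Among the lowest, RABA5E, a Rab GTPase gene, fell from 30.9, 35.6 and 30.3 CPM to 0.376, 0.271 and 0.15 CPM, and changed by −0.18 in the S1-labelled line, which was not called.

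Over all genes 27.2% had a higher difference and 27.3% a lower one, and the counts of each list below are to be read beside these shares. Genes of photosynthesis and amino acid breakdown had lower responses in the SnRK1-labelled line than in the S1-labelled line. Of 39 light harvesting and photosystem genes, 38 had a lower difference and none a higher one, with a median of −1.81 beside 0.03 over all genes, and none was called in the S1-labelled line, where the range was −0.94 to −0.08. All 5 Rubisco small subunit and activase genes were lower (median −1.87). Of 19 branched-chain amino acid breakdown genes, 16 were lower and 1 higher (median −1.31). IVD, isovaleryl-CoA dehydrogenase of leucine breakdown, went from 894, 926 and 859 CPM to 164, 121 and 236 CPM in the SnRK1-labelled line and from 773, 821 and 818 CPM to 809, 864 and 937 CPM in the S1-labelled line. LPD2, a lipoamide dehydrogenase, was the exception with 1.71. Of 18 other amino acid breakdown genes 10 were lower and 3 higher, with LKR of lysine breakdown at −3.59 ± 0.42 and HPD of tyrosine breakdown at −2.45 ± 0.28.

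Of 14 dark-induced genes, 10 were lower and 2 higher, with a median of −1.88. The 2 higher were MIOX4 and DIN11, an oxygenase gene that rose by 5.13 and 1.72, so that members of this list fell into the shared, unequal and S1-only classes. BGAL4, a beta-galactosidase gene, had a difference of −3.01 ± 0.34 and the dormancy gene DRM1 −2.04 ± 0.22, with S1 changes of 0.13 and −0.11 that were not called. Of 9 C and S1 bZIP genes, 5 were higher and 1, bZIP63, lower. This list holds genes targeted in the S1-labelled line, so its count does not describe the family apart from the genotype. The higher ones include the ko genes bZIP1 and bZIP53, with S1 changes of −2.62 and −2.26, and bZIP1 fell by 1.55 in the SnRK1-labelled line. Of 6 SnRK1 subunit genes 2 were lower, KIN11 and the beta subunit gene KINB1 (−1.98). That is 33.3% called, beside 54.5% of all genes. The median of the subunit list, −0.33, changed sign with both library totals (0.16) and scaling on the most expressed genes (0.03).

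Genes of sugar signalling and storage moved both ways. Of 18 trehalose genes 9 were higher and 6 lower. The trehalose phosphate synthases TPS8, at −1.97 ± 0.22, and TPS11, at −1.74, were lower, and the phosphatases TPPD, TPPJ (8.50) and TPPG (7.17) were higher, with TPPG counted alike with an overlapping gene. TRE1, trehalase, was shared, with changes of 0.73 and 0.59. Of 21 starch breakdown genes 7 were higher and 4 lower, which is 52.4% called beside 54.5% of all genes. The beta-amylase genes BAM4, at −2.34 ± 0.23, and BAM5, described above as higher, were on opposite sides, and the phosphatase gene SEX4 was at 2.43 ± 0.33. Of 29 autophagy genes 12 were lower and 3 higher (median −0.45), with ATG5 at −1.60 ± 0.18 and ATG13A at −1.31 ± 0.15. Of 17 beta-oxidation and glyoxylate cycle genes 8 were lower and 3 higher, with ACX4 at −2.16 ± 0.24. In either direction 51.7% of the autophagy list and 64.7% of the beta-oxidation list were called, beside 54.5% of all genes. The median of the autophagy list was 0.02 with library totals alone, and that of the beta-oxidation list went from −0.20 to 0.27 with them and to 0.14 with scaling on the most expressed genes.

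Genes of defence, nitrate use and translation had higher responses in the SnRK1-labelled line. Over all genes 27.2% had a higher difference and 27.3% a lower one. Of 20 salicylic acid and immune genes 18 were higher and none lower, with a median of 5.74. ICS1, isochorismate synthase of salicylic acid synthesis, went from 8.88, 9.88 and 12.1 CPM to 217, 263 and 190 CPM, and was at 8.72, 7.13 and 7.2 against 7, 7.57 and 6.89 CPM in the S1 pair. Of 13 camalexin and indole glucosinolate genes 12 were higher (median 2.85), with the regulators MYB51 at 2.94 ± 0.27 and WRKY33 at 2.67 ± 0.25. Of 22 jasmonate genes 16 were higher and 1 lower, with the repressor gene JAZ1 at 4.46 ± 0.58, and of 10 aliphatic glucosinolate genes 8 were higher, with the regulator gene MYB28 at 3.41 ± 0.36.

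Of 12 nitrate and ammonium genes 7 were higher and none lower, with NIR1, nitrite reductase, at 3.09 ± 0.25, and 6 of the 12 were called different between the wild types, NIR1 included (−0.68), beside 12.1% of all genes. Of 19 cytosolic ribosomal protein genes 13 were higher and none lower, with a median of 1.07 and with RPL23AB at 1.73 ± 0.18, but 10 of the 19 were also called different between the wild types. Of 6 alternative respiration genes 4 were higher and 1 lower, with NDB2, an NAD(P)H dehydrogenase gene, at 4.40 ± 0.35. Some other lists were mixed. Of 20 abscisic acid, drought and cold genes 10 were higher and 5 lower, with the abscisic acid synthesis gene NCED3 at 3.34 ± 0.39 and HB12 at −2.20 ± 0.22, and 8 of the 20 differed between the wild types. Of 19 clock genes 3 were higher and 9 lower, including RVE1 at −2.61 ± 0.26 and PRR5 at −2.22 ± 0.22, and 7 of the 19 differed between the wild types. Of 12 chlorophyll breakdown and senescence genes 3 were higher and 3 lower, of 7 anthocyanin and flavonoid genes 3 were higher, and of 5 heat shock genes 2 were higher.

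**Figure D3:**
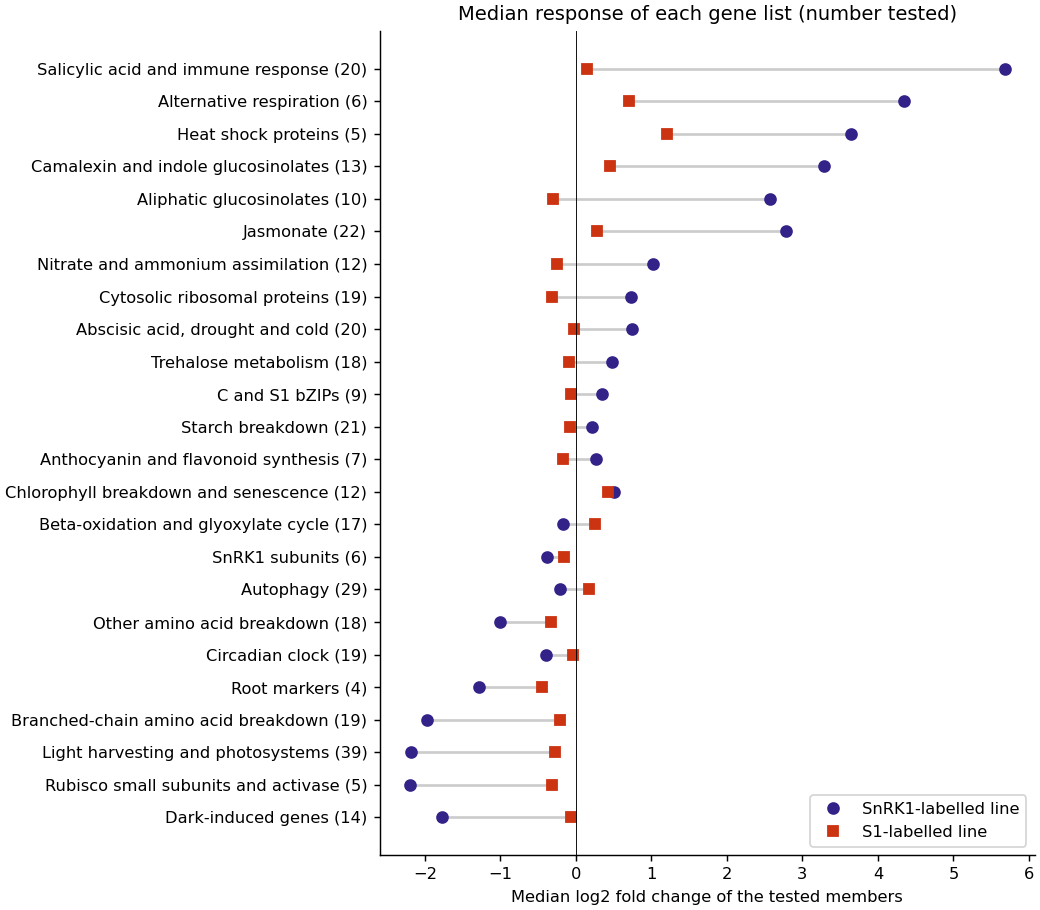
Median log2 change of each of 24 gene lists in the SnRK1-labelled line and in the S1-labelled line, each against its own wild type. The SnRK1 medians run from −2.2 for Rubisco genes to 5.68 for salicylic acid and immune genes, and the S1 medians from −0.45 for root markers to 1.21 for heat shock proteins.

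Families with several calls in the S1-labelled line were gathered after the values were seen, so their counts describe and test nothing. Over all genes 1.63% rose and 0.952% fell in the S1-labelled line, and 35.4% rose and 33.0% fell in the SnRK1-labelled line. Of 10 UGT73 glycosyltransferase genes, whose products attach glucose to small molecules, 6 rose in the S1-labelled line and none fell, and in the SnRK1-labelled line 9 rose and 1, UGT73B1, fell by 1.29. Among the 6, UGT73B4 and UGT73B5 share exon sequence with each other, so their calls may not be separate, and UGT73B3 shares some with a neighbour. UGT73C5 rose by 5.18 and 1.69, and UGT73B3 by 1.27 and 0.90, the only member in the shared class. Of 32 tau and phi class glutathione transferase genes 5 rose in the S1-labelled line and none fell, and in the SnRK1-labelled line 27 rose and 3 fell, among them GSTU18 by 2.35. GSTU4 went from 0.643, 0.658 and 0.577 CPM to 230, 251 and 184 CPM and from 1.13, 1.9 and 2.8 CPM to 6.76, 9.73 and 4.14 CPM, while GSTU7 rose by 1.15 and 0.85.

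Of 13 genes of sulfate assimilation and low-sulfur response, 6 rose in the S1-labelled line and none fell, and in the SnRK1-labelled line 10 rose and 2 fell. Among the 6 was APR3 of sulfate reduction, with changes of 3.37 and 1.54 in the SnRK1-labelled and S1-labelled lines. SULTR1;2 was at 14.7, 16.6 and 13 against 10.5, 5.15 and 8.11 CPM in the SnRK1 pair and at 10.3, 8.32 and 8 against 16.8, 32.4 and 20.7 CPM in the S1 pair, and neither pair overlapped. Of 11 inositol and raffinose genes 4 fell in the S1-labelled line, namely MIOX4, MIPS1, and the raffinose synthase family genes RS5 (1.02 and −0.94) and RS2 (−1.95 and −1.09), while the 4 that rose and 4 that fell in the SnRK1-labelled line are near the shares over all genes. Of 14 alpha-expansin genes 2 fell and none rose in the S1-labelled line, and 8 rose and 1 fell in the SnRK1-labelled line.

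**Figure D4:**
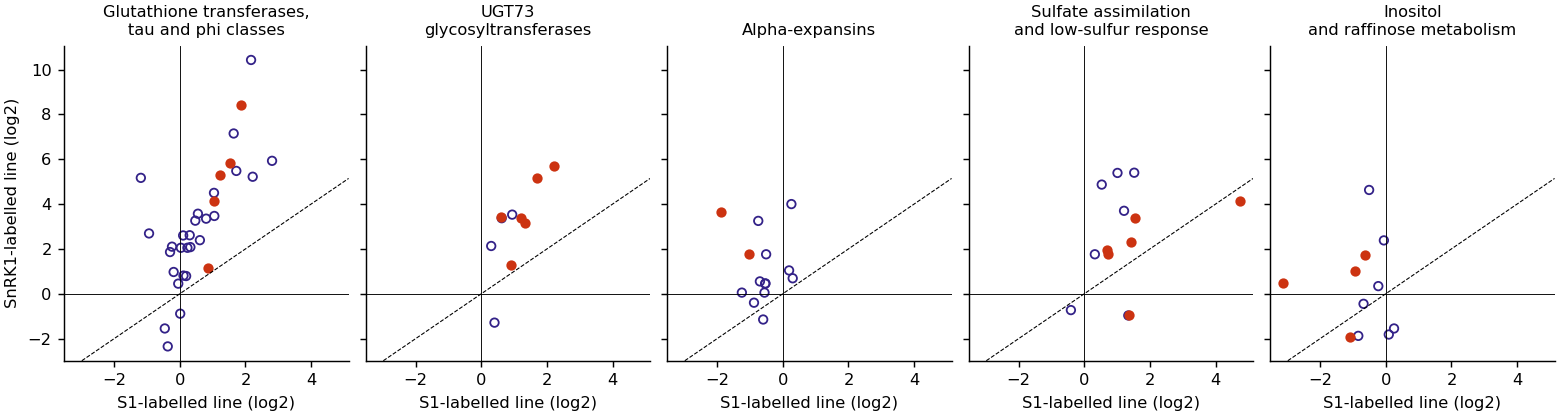
Log2 change of the members of 5 gene families, chosen after their values were seen, in the SnRK1-labelled line and the S1-labelled line. Filled red points are genes called in the S1-labelled line and open points are genes not called there, and the dashed line marks equal responses. For the UGT73 family 6 of 10 are filled.

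Promoter letters were counted over the response classes as a description. ACTCAT occurred in 13.3% of the shared genes that fell and 19.2% of those that rose, beside 11.8% of the genes tested. CACGTG occurred in 15.6% of shared and 19.1% of unequal genes that fell, beside 7.4% of the genes tested, and in 3.77% of opposite genes lower in the SnRK1-labelled line. The classes hold between 27 and 95 windows each, and no test was made.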

How the data were processed

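RNA sequencing gave gene counts for 12 libraries. The authors deposited raw counts per gene, and the submitters' processing notes name the TAIR10 build with SAMtools 0.1.18, Bowtie 0.12.8 and FastQC. The sources used here name no counting program and no strand setting. The number of library columns without a sample was 0.

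Counts were filtered with filterByExpr (minimum count 10), scaled by TMM and fitted in one model of 4 groups with edgeR 4.0.16 (quasi-likelihood test, limma 3.58.1, R 4.3.3), and p-values were adjusted by Benjamini-Hochberg over all 18388 genes tested. A call is an adjusted p under 0.05. Standard errors of log2 changes were derived from the F statistic and are unreliable for genes with few counts. Every adjusted p in the text comes from this fit unless an alternative is named.

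Names and promoters came from RefSeq TAIR10.1, where 28009 of 28775 listed genes matched, 6766 share exon sequence with another and 128 have counts equal to another gene in every library. Promoters were read from the genome of that build with Python 3.11.15, and figures were drawn with matplotlib 3.10.9.

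Genes are named by rule. They are the targeted genes, then, among genes with at least 5 CPM on average in 1 group, the 8 highest and 8 lowest differences, the 8 shared genes per direction and the 10 opposite genes per direction with the strongest weaker response, the 5 unequal genes per line and direction, the 5 genes per direction called in the S1-labelled line alone, and 2 members of each list with at least 3 calls. Members and lists were chosen with earlier results of these data known, and 5 families were gathered after their values were seen. Other genes outside the rule were also picked after their values were seen. This is said where they appear, except for the list members KINB1, bZIP63, DIN11, TPS11, TPPJ and TRE1, which were so picked too.

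Alternatives were RLE factors, library totals, TMM on the most expressed genes, DESeq2 1.42.0, limma-voom, other filters, a replicate block, each library left out, organelle genes left out, overlapping genes left out, an adjusted p under 0.01 and, added after the data were seen, a minimum fold in both lines.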

Additional observations from a re-analysis of the deposited data

Results flagged for a closer look

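The test of the difference itself marked 10015 genes whose response in the SnRK1-labelled line was not that in the S1-labelled line. Of the genes called in both lines, 143 moved in the same direction by unequal amounts and 99 moved in opposite directions. The SnRK1-labelled line and its wild type had 6 d on Est and the S1 pair 1 d, so line and duration cannot be told apart in all 3 counts. For 53 of the 99 the wild types were called different as well, and the part of that in the opposite direction was not tested.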

How the results depend on the processing

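Called differences stood at 4472 to 4965 higher and 4662 to 5447 lower when each library was left out. The classes, which need a call in the S1-labelled line, moved more, with 39 to 176 shared, 45 to 350 unequal and 25 to 156 opposite genes and 140 to 866 calls in that line. The highest counts came without SnRK1-labelled replicate 3. S1 calls were 140 and 169 without S1 wild type replicates 2 and 3 and 312, 147 and 284 without S1-labelled replicates 1, 2 and 3. Shared genes were then 42, 48, 78, 39 and 68. Unequal genes were 93 without S1 wild type replicate 1, 45 and 62 without replicates 2 and 3, and 62 and 53 without S1-labelled replicates 1 and 2. Opposite genes were 64 without SnRK1 wild type replicate 2, 27 and 30 without S1 wild type replicates 2 and 3, and 25 and 40 without S1-labelled replicates 2 and 3. The cause was not tested. Library totals alone gave 7678 higher, 2601 lower, 194 shared and 260 unequal, turned PIN7 to 0.46 and turned the medians of the SnRK1 subunit, autophagy and beta-oxidation lists to 0.16, 0.02 and 0.27. TMM on the most expressed genes gave 3207 lower and turned the SnRK1 subunit and beta-oxidation medians to 0.03 and 0.14. Membership of the classes changed more than their counts. With library totals alone 47 of the 118 shared, 113 of the 143 unequal and 50 of the 99 opposite genes kept their class. With TMM on the most expressed genes 73, 120 and 69 did. Of the called differences, 75.9% and 82.0% were kept in the same direction. No filter gave 238 unequal genes, leaving out overlapping genes turned the root marker median to 0.32, and an adjusted p under 0.01 left 134 S1 calls, 44 shared, 36 unequal and 26 opposite genes. Of 122 named results, 99 kept direction and call in every setting run. List medians were less stable, since 2 of 24 stayed within the spread in every setting, and of their 551 values 60 moved and 6 reversed.

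With a replicate block, 5123 differences were higher and 5193 lower, with 141 shared, 213 unequal and 132 opposite genes and 615 S1 calls. Residuals of same-numbered libraries correlated at −0.0917 to 0.199, with 7 of 18 pairs over 0.1, against 4 of 36 pairs of different numbers. Pairing was taken as shown only where every pair passed 0.1, and the labels give no shared batch, so the block was not used in the main fit.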

Other observations

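Some genes called in the S1-labelled line lay near each other on the chromosomes. Windows of 30 neighbouring tested genes held 0.78 such calls on average, and 52 of 18156 overlapping windows held 6 or more. The window from AT5G53750 to AT5G54160 on chromosome 5 held 6, all lower, namely HGO, AT5G54090, MAMI, AT5G54130, AT5G54145 and OMT1. HGO and AT5G54090 share exon sequence, so their calls may not be separate. The S1 changes of the 6 genes were −1.34, −1.17, −1.09, −1.43, −1.43 and −1.18, and their SnRK1 changes −3.33, −2.90, −1.31, −0.27, −2.16 and 0.35.

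The window from AT3G25890 to AT3G26320 on chromosome 3 held 8, of which 7 were higher. The 7 were the cytochrome P450 genes CYP71B19, CYP71B20, CYP71B23, CYP71B3, CYP71B24, CYP71B26 and CYP71B36, with S1 changes of 0.99, 0.61, 1.06, 0.61, 0.78, 0.76 and 1.09. In the SnRK1-labelled line the same genes changed by 1.09, 0.19, 2.22, −0.33, 0.19, 0.32 and −0.54. Other CYP71B genes of that window were not called in the S1-labelled line. CYP71B17, CYP71B22, CYP71B4, CYP71B34 and CYP71B35 changed there by 0.19, 0.17, 0.37, −0.12 and −0.15. These windows were noticed in the data and no test was made.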
